A study of Mus musculus with 27 samples.

Results

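DNA methylation was compared between hepatocytes (liver parenchymal cells) of C57BL/6J and CAST/EiJ mice. C57BL/6J is the laboratory strain from which the mouse reference genome was made, and CAST/EiJ is a wild-derived inbred strain of the subspecies Mus musculus castaneus. The comparison used the 3 C57BL/6J samples (numbers 1, 2 and 4 in the labels) and the 3 CAST/EiJ samples (numbers 1, 4 and 5), which are 6 of the 27 samples of a survey of 9 inbred strains. All mice were female and 12 weeks old, and no group received a treatment that the labels name. Reduced representation bisulfite sequencing (RRBS) cuts the genome with MspI at CCGG sites, converts unmethylated cytosines and reads the CpG-rich fragments, so most of the genome outside these fragments was not sampled. The labels number the samples of a strain as biological replicates (biol rep). They do not say how the hepatocytes were purified, nor whether each sample is a single animal. The spread between samples may thus in part be technical.

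The survey was designed to relate sequence differences between strains to chromatin, methylation and expression. Of 4179592 positions listed in at least 1 of the 6 samples, 2093786 (50.1%) were listed in all 6, and 401333 of these were not listed in all 27 samples. A further 311122 positions were listed in all C57BL/6J samples and in no CAST/EiJ sample, and 330224 the other way round. Positions were averaged in consecutive tiles of 1 kb. There were 86821 tiles with 5 or more positions, of which 66418 had a mean over the 6 samples at least 2.5 points from both 0 and 100% and were tested. The lists gave a percent for each position and no read count, which leaves the sequencing depth unknown, and no interval for counting error can be given.

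DNA methylation in mammals is placed mainly on the cytosine of CpG dinucleotides and is copied at cell division by Dnmt1. CpG-rich promoters are usually kept free of it, whereas gene bodies, repeats and the space between genes are usually methylated. At imprinted genes the copy from a single parent is methylated, and on the inactive X of female cells many CpG-rich promoters are methylated, so that intermediate percentages are found there in a population of cells. A CpG that is mutated in a strain can be missing from its lists or can read as unmethylated. The part of such sequence variants in the values below was not tested.

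The results are introduced by 4 promoter windows of named tiles. Each runs from 250 bases before to 50 bases after a RefSeq start (build GRCm38.p6, C57BL/6J sequence) and is written 5′ to 3′ in the direction of the gene. Capitals mark the CpGs at which a position was listed in all 6 samples. B3galt4 and Tnfsf14 are shown because the window itself differed in opposite directions, Ranbp3l because a window poor in CpGs differed, and Bag5 because a CpG-dense window was unmethylated in both strains although a tile 953 bases from the start differed.
B3galt4, chr17:33951439-33951738, minus strand: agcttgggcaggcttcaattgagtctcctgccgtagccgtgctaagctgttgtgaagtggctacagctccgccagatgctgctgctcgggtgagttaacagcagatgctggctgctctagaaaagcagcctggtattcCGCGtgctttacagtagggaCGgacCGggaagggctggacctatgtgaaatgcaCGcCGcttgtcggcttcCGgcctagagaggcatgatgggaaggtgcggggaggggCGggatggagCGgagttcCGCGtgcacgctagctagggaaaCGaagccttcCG
Tnfsf14, chr17:57194132-57194431, minus strand: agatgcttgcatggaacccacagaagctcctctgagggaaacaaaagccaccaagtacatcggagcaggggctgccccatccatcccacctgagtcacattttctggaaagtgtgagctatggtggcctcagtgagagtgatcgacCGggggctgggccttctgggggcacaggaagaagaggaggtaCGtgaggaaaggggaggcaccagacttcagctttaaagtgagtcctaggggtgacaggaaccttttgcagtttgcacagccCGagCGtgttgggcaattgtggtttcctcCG
Ranbp3l, chr15:8967699-8967998, plus strand: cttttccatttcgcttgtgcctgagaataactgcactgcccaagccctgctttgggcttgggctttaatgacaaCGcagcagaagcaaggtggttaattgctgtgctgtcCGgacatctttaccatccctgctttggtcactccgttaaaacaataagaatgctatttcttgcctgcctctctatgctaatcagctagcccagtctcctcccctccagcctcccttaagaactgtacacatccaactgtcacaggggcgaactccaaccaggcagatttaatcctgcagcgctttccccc
Bag5, chr12:111712904-111713203, minus strand: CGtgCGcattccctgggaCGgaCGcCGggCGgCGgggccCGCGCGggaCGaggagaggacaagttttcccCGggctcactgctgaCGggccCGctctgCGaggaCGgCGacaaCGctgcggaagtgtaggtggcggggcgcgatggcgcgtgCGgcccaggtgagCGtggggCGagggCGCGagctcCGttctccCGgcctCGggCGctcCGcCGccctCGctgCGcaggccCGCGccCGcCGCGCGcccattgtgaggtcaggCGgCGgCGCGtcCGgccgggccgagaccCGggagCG

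In the B3galt4 window 13 of 20 CpGs were listed, in 24 positions counting both strands. B3galt4 encodes a galactosyltransferase of ganglioside synthesis. The mean of these positions was 56.4%, 60.2% and 62.2% in the C57BL/6J samples and 2.99%, 2.80% and 4.45% in the CAST/EiJ samples. The window was thus partly methylated in every C57BL/6J sample and nearly unmethylated in every CAST/EiJ sample. Tnfsf14 encodes the cytokine LIGHT of the tumour necrosis factor family, and 5 of the 7 CpGs of its window were listed, in 8 positions. Their mean was 16.4%, 17.6% and 13.8% in C57BL/6J and 69.9%, 75.8% and 72.7% in CAST/EiJ, with the order of the strains reversed relative to B3galt4. The Ranbp3l window, which had 3 listed positions at 2 of 6 CpGs, stood at 7.91%, 4.76% and 24.2% in C57BL/6J and at 75.7%, 76.4% and 65.9% in CAST/EiJ. Ranbp3l encodes a Ran-binding protein of nuclear export. The Bag5 window, with 44 of 52 CpGs listed in 67 positions, had 0.327% in C57BL/6J and 0.366% in CAST/EiJ (mean of 3 samples each). Bag5 encodes a co-chaperone of Hsp70.

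Tiles were called where limma's p, adjusted by Benjamini-Hochberg over all tested tiles, was under 0.05 and the strain means lay at least 25 percentage points apart. By this rule 1378 tiles were called, which is 2.07% of those tested. Of these, 881 were higher in CAST/EiJ (1.33% of tested tiles) and 497 were higher in C57BL/6J (0.748%), so that 63.9% of the called tiles were higher in CAST/EiJ. The 95% Wilson interval of that share was 61.4 to 66.4%, which treats tiles as independent. The median difference was 34.41 points for tiles higher in CAST/EiJ and -34.41 points for the others, against a median within-strain SD over these tiles of 4.73 points in C57BL/6J and 4.07 points in CAST/EiJ. The rule selects tiles whose difference is large beside this spread, so the contrast follows in part from the rule. The adjusted p alone was under the threshold in 2957 tiles. Leaving out CAST/EiJ sample 1, 4 or 5 reduced the count to 900, 902 and 860 tiles, and 693 tiles, 425 of them higher in CAST/EiJ, stayed called whichever of the 6 samples was left out.

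**Figure D1:**
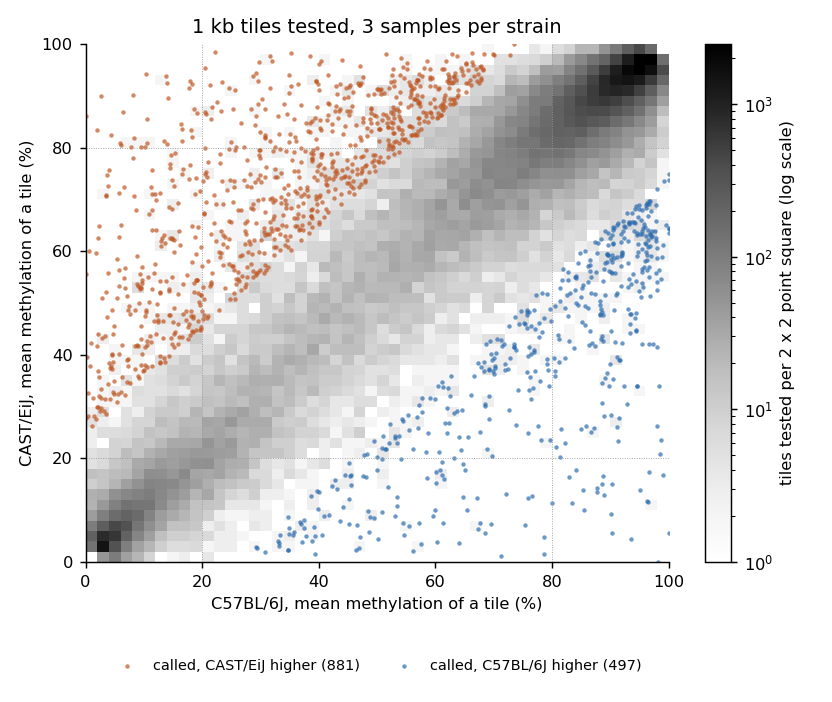
Mean methylation of each tested 1 kb tile in C57BL/6J (x axis, %) and CAST/EiJ (y axis, %), each the mean of 3 samples. Grey squares give the number of tiles on a log scale, and points are the 881 called tiles higher in CAST/EiJ and the 497 higher in C57BL/6J, which lie on both sides of a dense diagonal.

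The lean towards CAST/EiJ was also present in tiles that were not called. Over all 66418 tested tiles the median difference was 1.09 points, and 61.9% of tiles had the higher mean in CAST/EiJ, close to the 63.9% among called tiles. Mean methylation over the 2093786 shared positions was 33.49%, 33.74% and 33.58% in C57BL/6J and 34.52%, 34.47% and 34.48% in CAST/EiJ. The samples did not overlap, and the difference was 0.886 points (exact two-sided permutation test, p = 0.1, the smallest that 3 against 3 allows). Counting every position listed in a sample instead of shared ones reduced it to 0.438 points. The C57BL/6J lists name the mitochondrial chromosome differently from the CAST/EiJ lists and from those of all other strains. Within the 6 samples a difference in processing therefore cannot be told apart from a difference of strain. Within them this holds for these global values and for the tiles, promoter windows and positions alike. The lists of the 7 other strains use the same name as those of CAST/EiJ. Of 921 called tiles with a value in every strain, 267 had all 7 nearer to C57BL/6J and 15 had all 7 nearer to CAST/EiJ. The part of processing in the called tiles was not tested.

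On autosomes more positions were highly methylated in CAST/EiJ and fewer lay in both lower classes. Positions above 80% made up 26.9%, 27.3% and 26.8% of autosomal positions in C57BL/6J and 28.6%, 28.4% and 28.7% in CAST/EiJ. Positions at 20 to 80% made up 11.3%, 11.3% and 11.7% in C57BL/6J and 10.5%, 10.8% and 10.5% in CAST/EiJ, a difference of -0.833 points (exact permutation p = 0.1). The strains did not overlap in either class.

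On the X chromosome the mean level was lower in CAST/EiJ, at 51.6%, 51.8% and 51.75% in C57BL/6J and 49.8%, 49.2% and 48.9% in CAST/EiJ, whereas the autosomal mean was higher by 0.970 points. X positions at 20 to 80% made up 37.4%, 39.2% and 38.3% in C57BL/6J and 33.7%, 32.9% and 31.8% in CAST/EiJ, a difference of -5.55 points. Positions below 20% made up 27.5% ± 0.889 (SD, n = 3) of X positions in C57BL/6J and 33.0% ± 0.964 (SD, n = 3) in CAST/EiJ. The share above 80% was 34.2% in both strains, so the intermediate share that was lower in CAST/EiJ was matched by a larger share of unmethylated positions. At most 1 kb from protein-coding gene ends the X level was 28.4%, 28.7% and 28.6% in C57BL/6J and 25.1%, 24.2% and 23.6% in CAST/EiJ. Farther away it was 64.6% and 63.2%. In each of these measures except the share above 80% (exact permutation p = 0.6) the samples of the strains did not overlap (exact permutation p = 0.1). Only 13 of 2277 tested X tiles (0.571%) were called, 2 of them higher in CAST/EiJ, against 1.39% to 2.78% of tested tiles per autosome. On 18 of 19 autosomes more called tiles were higher in CAST/EiJ than in C57BL/6J. On Y, which female mice do not carry, 2 of 13 tested tiles were called, both higher in C57BL/6J. They are counted among the 1378 called tiles, and the origin of the reads placed on Y was not tested.

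Calls were most frequent among tiles of intermediate level in C57BL/6J. Of tested tiles below 20% in C57BL/6J 2.59% were called, of those at 20 to 80% 5.19%, and of those above 80% 0.681%. The filter on the mean kept tiles at an extreme level in C57BL/6J only where CAST/EiJ was less extreme. Tiles below 20% could reach the minimum difference only upwards and those above 80% only downwards, whereas many intermediate tiles could do so either way. The order of the classes may thus in part follow from the filter and the minimum difference. Among the 1378 called tiles 951 lay in different classes in the strains. The most frequent changes were from intermediate in C57BL/6J to above 80% in CAST/EiJ (317 tiles), from above 80% to intermediate (250 tiles), from below 20% to intermediate (236 tiles) and from intermediate to below 20% (96 tiles). A full switch between below 20% and above 80% was found in 30 tiles that were methylated in CAST/EiJ and in 22 that were methylated in C57BL/6J. The remaining 427 tiles stayed intermediate, 298 of them higher in CAST/EiJ.

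**Figure D2:**
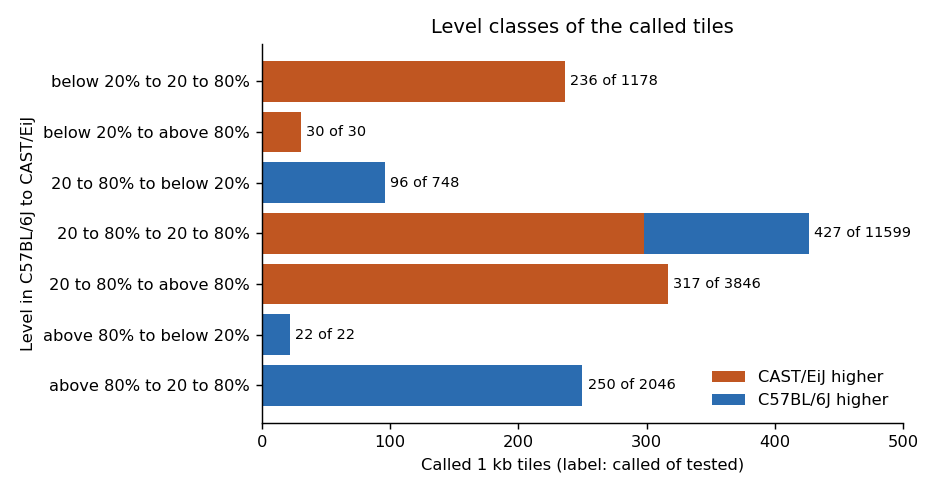
Number of called 1 kb tiles (x axis) by level class in C57BL/6J and then CAST/EiJ (y axis), split by the strain with the higher mean. Labels give called of tested tiles, for example 317 of 3846 from intermediate to above 80%.

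The share of tiles called varied with the distance to gene ends. Of tiles that hold a protein-coding gene end 1.42% were called, of tiles up to 1 kb away 1.73%, at 1 to 5 kb 2.0%, at 5 to 20 kb 2.36%, at 20 to 50 kb 2.42%, and beyond 50 kb 1.9%. The share of the called tiles that was higher in CAST/EiJ was, in the same order, 76.3% (45 of 59 tiles), 62.5%, 63.5%, 66.7%, 67.9% and 54.9% (161 of 293 tiles), with no steady trend. Positions within 1 kb of an end had a mean of 6.31% in C57BL/6J and 6.63% in CAST/EiJ, a difference of 0.325 points (exact permutation p = 0.1). Tiles with 50 or more positions, which are dense in CpGs, were called in 0.79% of cases, against 1.84% to 2.18% of tiles with fewer positions. Tiles that overlap a protein-coding span, wholly or in part, were called in 1.86% of cases (66.6% of them higher in CAST/EiJ). Tiles that overlap lncRNA spans alone were called in 2.7% (73.3%), and those that overlap pseudogenes alone in 2.95% (48.3%). Tiles outside all of these were called in 2.34% (57.6%). These shares are descriptions and their differences were not tested.

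Promoter windows seldom differed. Of 9743 windows of protein-coding genes with 5 or more listed positions, 9211 (94.5%) were below 20% in both strains, with a median of 0.526% in C57BL/6J and 0.646% in CAST/EiJ. The strain means lay 25 points or more apart in 31 windows (0.318%) of 30 genes, 21 of them higher in CAST/EiJ. In each of the 31 the samples of the strains did not overlap, as was so in 13.4% of all windows. The windows that differed held a median of 11 CpGs, against 24 in all windows. Besides Tnfsf14 and B3galt4, the 5 with the greatest distance, chosen after their values were seen, were Mcf2l, Ddx43, Shroom3, Krtcap3 and Iho1, all higher in CAST/EiJ. Mcf2l, a guanine nucleotide exchange factor, stood at 7.86% in C57BL/6J and 61.7% in CAST/EiJ. Shroom3, an organiser of apical actin, stood at 22.8% and 72.3%. Ddx43, a helicase known from testis and tumours, was at 5.56%, 0% and 0% in C57BL/6J and at 70.6%, 53.5% and 40.1% in CAST/EiJ.

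Called tiles within 1 kb of a start were named by the size of the difference, 10 in each direction. No protein-coding start on chromosome 18 was available, so its 41 called tiles could not be named here. They were taken from tiles in which the samples of the strains did not overlap. In 5 of the 20 (those near Bag5, Numbl, Kctd2, Pebp1 and Arrdc1) the promoter window of the named gene held at least 3 listed positions and had a mean under 1.1% in both strains. In 4 (B3galt4, Tnfsf14, Rnase13 and Ranbp3l) the window differed as well, but it overlaps the tile and shares positions with it. The windows of the others held fewer than 3 listed positions.

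**Figure D3:**
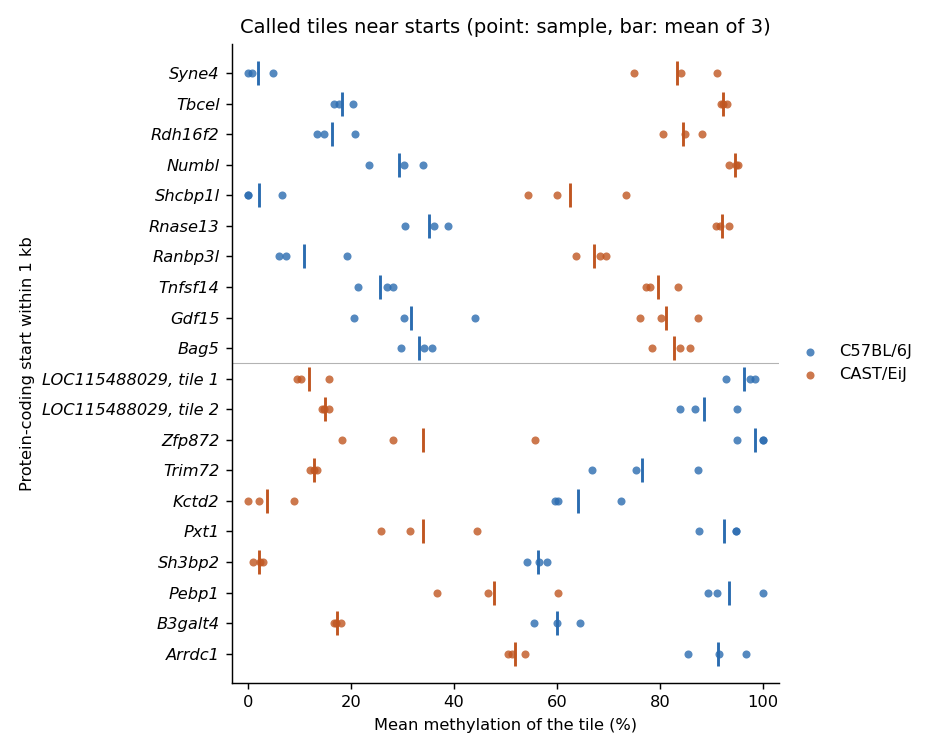
Mean methylation (x axis, %) of the 20 called tiles named near starts of protein-coding genes (y axis), with a point per sample and a bar at the mean of 3. The upper 10 tiles were higher in CAST/EiJ and the lower 10 in C57BL/6J. Only called tiles in which the samples of the strains do not overlap were eligible.

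Among tiles higher in CAST/EiJ near a start, the greatest difference was at Syne4, which encodes nesprin-4, a protein that links the nucleus to microtubules. The tile at chr7:30314001-30315000, which also lies in the span of Alkbh6, had 10 positions and stood at 0%, 0.909% and 5% in C57BL/6J and at 75.01%, 84.1% and 91.0% in CAST/EiJ. It was unmethylated in all C57BL/6J samples and highly methylated in all CAST/EiJ samples (difference 81.4 points, limma adjusted p = 0.0011). A/J and DBA/2J stood at 79.1% and 77.7%, and the other 5 strains between 3.81% and 9.27%.

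Tbcel encodes a protein related to tubulin-folding cofactor E. Its tile at chr9:42456001-42457000 had 18.3% ± 1.93 in C57BL/6J and 92.2% ± 0.588 in CAST/EiJ (SD, n = 3 each). The tile beside Numbl, in the span of Coq8b, a gene of coenzyme Q synthesis, was at 29.3% ± 5.38 and 94.4% ± 0.879 (SD, n = 3 each). Here WSB/EiJ, at 90.9%, was as high as CAST/EiJ. Gdf15 encodes a stress-responsive cytokine, and a tile 545 bases from its start was at 30.3%, 20.6% and 44.0% in C57BL/6J and at 76.0%, 87.4% and 80.3% in CAST/EiJ. In 5 of the other strains that tile was between 68.1% and 81.4%, and in A/J and NOD/ShiLtJ it was at 52.4% and 37.3%.

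Tnfsf14 and Ranbp3l were high in CAST/EiJ alone among the 9 strains. The Tnfsf14 tile at chr17:57194001-57195000 had 13 positions and a mean of 25.6% ± 3.67 in C57BL/6J and 79.6% ± 3.45 in CAST/EiJ (SD, n = 3 each; limma adjusted p = 0.0015), while the other 7 strains had means of 24.4% to 38.1%. The 9 positions from -104 to 91 bases relative to the start had 14.1% in C57BL/6J and 75.04% in CAST/EiJ, and the 2 positions at 158 and 159 bases had 25.1% and 89.8%, whereas the 9 positions from 175 to 852 bases after it had 83.4% and 88.8%. The Ranbp3l tile at chr15:8967001-8968000 was at 10.9% ± 7.24 and 67.1% ± 3.08 (SD, n = 3 each; limma adjusted p = 0.0038), and the other strains had means of 3.65% to 17.7%.

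Among the 10 tiles named as higher in C57BL/6J near a start, those at Sh3bp2 and B3galt4 rested on the most positions. Sh3bp2 encodes an SH3-domain adaptor of immune and bone cells. Its tile at chr5:34549001-34550000 had 46 positions, all between 36 and 376 bases after the start, with means of 54.1%, 56.5% and 58.1% in C57BL/6J and 2.90%, 1.06% and 2.45% in CAST/EiJ. Every CAST/EiJ sample was nearly unmethylated (difference -54.1 points, limma adjusted p = 0.00055). The other 7 strains had means of 37.98% to 68.4%, so CAST/EiJ was the lowest of the 9.

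The B3galt4 tile at chr17:33951001-33952000 had 48 positions and also overlaps Rps18, a gene of the small ribosomal subunit. It stood at 55.6%, 60.1% and 64.5% in C57BL/6J and at 16.8%, 17.1% and 18.0% in CAST/EiJ (difference -42.8 points, limma adjusted p = 0.0022). The other strains ranged widely, from below the CAST/EiJ level, with 8.57% in WSB/EiJ and 13.6% in NOD/ShiLtJ, to 41.4% in 129S1/SvImJ and 55.2% in A/J. The 25 positions from -273 to 49 bases relative to the start had 59.9% in C57BL/6J and 3.52% in CAST/EiJ. C57BL/6J was also higher in the 7 positions from 244 to 261 bases (46.2% and 12.3%) and in the 23 from 350 to 546 bases (69.6% and 51.1%). The 10 positions from 917 to 1316 bases after it had 86.1% and 95.3%, with overlapping samples.

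**Figure D4:**
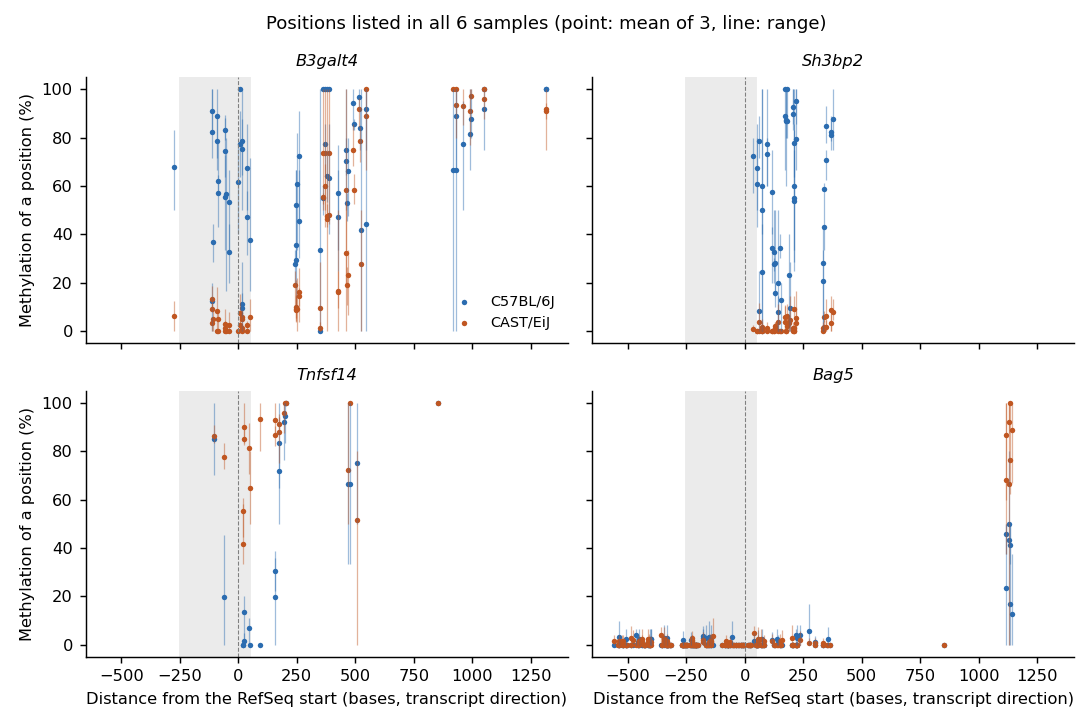
Methylation (y axis, %) of each position listed in all 6 samples by its distance from the RefSeq start (x axis, bases), as the mean of 3 samples with their range. The promoter window is shaded. B3galt4 and Sh3bp2 are high in C57BL/6J and low in CAST/EiJ around or just after the start, Tnfsf14 is the reverse, and Bag5 differs only in 7 positions from 1116 to 1142 bases after the start.

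At Bag5 the 171 positions from -559 to 852 bases relative to the start had 0.451% in both strains, and the 7 positions from 1116 to 1142 bases after it had 35.7%, 29.8% and 34.3% in C57BL/6J and 85.7%, 83.9% and 78.4% in CAST/EiJ. The call of the Bag5 tile was lost when tile medians replaced means. Trim72 encodes a muscle protein of membrane repair, and a tile 623 bases from its start was lower in CAST/EiJ, at 76.5% ± 10.3 in C57BL/6J and 12.8% ± 0.743 in CAST/EiJ (SD, n = 3 each; limma adjusted p = 0.0028). Kctd2 encodes an adaptor of cullin ubiquitin ligases. A tile 875 bases from its start was at 64.0% ± 7.22 and 3.74% ± 4.69 (SD, n = 3 each; limma adjusted p = 0.0031). Pebp1 encodes the Raf kinase inhibitor protein, and its tile was at 93.4% ± 5.74 and 47.9% ± 11.8. The Pebp1 call was lost when CAST/EiJ sample 4 or 5 was left out, or with an offset of 1 point in the log ratio.

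The 10 called tiles with the greatest difference in each direction, again taken from those without overlap, included full switches within genes. Of these, the tiles at Syne4 and LOC115488029 lie within 1 kb of a start. Map4k3 encodes a kinase of nutrient and stress signalling. Its tile at chr17:80698001-80699000 stood at 0% in all C57BL/6J samples and at 91.7%, 77.8% and 88.9% in CAST/EiJ (limma adjusted p = 0.00055). Blm encodes a RecQ helicase of DNA repair, and its tile at chr7:80456001-80457000 was at 13.8% ± 2.25 in C57BL/6J and 93.8% ± 1.43 in CAST/EiJ (SD, n = 3 each). PWK/PhJ, at 90.6%, was as high as CAST/EiJ there, and the other 6 strains had means of 10.8% to 33.2%. A tile in Fam169b was likewise at 8.20% in C57BL/6J, 90.2% in CAST/EiJ and 92.5% in PWK/PhJ.

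At 3 tiles inside genes methylation was low in CAST/EiJ alone. Mier3 encodes a part of histone deacetylase complexes, and its tile at chr13:111711001-111712000 was at 96.5% ± 2.31 in C57BL/6J and 11.6% ± 5.41 in CAST/EiJ. Lnx2, a ubiquitin ligase that binds Numb, had 90.0% ± 3.82 and 9.20% ± 2.17 at chr5:147031001-147032000. Dnmbp, an exchange factor for Cdc42, had 96.6% ± 3.17 and 17.4% ± 5.37 at chr19:43852001-43853000 (SD, n = 3 each; limma adjusted p between 0.00055 and 0.001 for these genes). The 7 other strains had means of at least 89.0% at each of the 3 tiles. A further 2 tiles outside genes went from 98.1% and 100% in C57BL/6J to 0% and 5.56% in CAST/EiJ, at chr5:109907001-109908000 and chr2:121444001-121445000. They had a value in only 2 and 3 of the other strains.

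Some called tiles lay side by side. There were 58 runs of neighbouring called tiles, which held 121 tiles, and in 62 of 63 neighbouring pairs the direction was the same. The longest, each of 4 tiles, were a stretch outside genes at chr5:112625001-112629000 and one in Slc20a2, a sodium-dependent phosphate transporter. The stretch on chromosome 5 had 61 positions and stood at 27.6%, 29.3% and 27.9% in C57BL/6J and at 75.9%, 81.4% and 72.3% in CAST/EiJ. The stretch in Slc20a2 at chr8:22507001-22511000 had 51 positions and stood at 34.5%, 36.6% and 35.9% in C57BL/6J and at 62.8%, 69.95% and 63.2% in CAST/EiJ. A run of 3 tiles in Aatk, an apoptosis-associated tyrosine kinase, went from 42.5% to 71.9%.

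Gene lists were described by the tiles in or within 1 kb of their genes, beside the 2.07% of all tested tiles. For lipid and cholesterol synthesis 5 of 117 tested tiles were called (4.27%), all 5 higher in CAST/EiJ. The median difference over the tested tiles of the list was 3.08 points, against 1.09 over all tiles. Dgat2 encodes an enzyme of the last step of triglyceride synthesis. Its tile at chr7:99155001-99156000 was at 0%, 5.21% and 3.13% in C57BL/6J and at 33.1%, 46.6% and 50.1% in CAST/EiJ, and the neighbouring tile at 18.1% ± 4.48 and 47.5% ± 3.59. The other called tiles of the list lay in Acacb (acetyl-CoA carboxylase 2; 3.37% and 31.5%), Acly (ATP citrate lyase; 9.81% and 36.8%) and Scap (the escort protein of SREBP; 68.2% and 95.04%), in C57BL/6J and CAST/EiJ respectively. Of the 5 tiles, 1, in Dgat2, stayed called whichever sample was left out.

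For the cytochromes P450, enzymes of drug, steroid and fatty acid oxidation, 8 of 90 tested tiles were called (8.89%), 3 higher in CAST/EiJ and 5 in C57BL/6J. Of these, 4 belonged to a single gene, Cyp26c1, which breaks down retinoic acid. Its tile at chr19:37693001-37694000 had 70 positions and stood at 71.6%, 65.8% and 68.2% in C57BL/6J and at 35.7%, 29.4% and 26.6% in CAST/EiJ. A second at chr19:37687001-37688000, with 37 positions, stood at 84.1% ± 2.28 and 50.02% ± 3.13 (SD, n = 3 each). Cyp4f13, a member of the CYP4F fatty acid hydroxylases, was at 0.649%, 1.12% and 0.476% in C57BL/6J and at 37.3%, 40.2% and 36.2% in CAST/EiJ. Cyp46a1, the cholesterol 24-hydroxylase, was at 7.27% and 48.7%, and Cyp2b9 at 61.5% and 89.1%. Cyp2d22 was at 54.2% in C57BL/6J and 19.95% in CAST/EiJ. In this list 4 of the 8 tiles stayed called whichever sample was left out: those in Cyp46a1 and Cyp4f13 and the 2 Cyp26c1 tiles with the most positions.

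Hepatocyte transcription factors had 2 calls in 63 tested tiles (3.17%), both higher in CAST/EiJ. Nr5a2 encodes LRH-1, a nuclear receptor of bile acid and cholesterol metabolism, and its tile 40630 bases from a start was at 11.2% ± 5.75 in C57BL/6J and 72.3% ± 2.69 in CAST/EiJ (SD, n = 3 each; limma adjusted p = 0.0026). The other strains had 19.7% to 38.8%. The tile of Foxa1, a pioneer factor of liver, was at 20.8% and 47.0% and stayed called in 1 of the 6 fits that left out a sample. Metabolic nuclear receptors had 4 calls in 125 tiles (3.2%): Rxrg (36.0% and 82.0%) and 2 tiles of Ppard (29.7% and 79.6%, 50.1% and 91.3%) were higher in CAST/EiJ, and Nr1i2, the xenobiotic receptor PXR, was lower (59.0% and 31.8%). The Nr1i2 call was lost whichever sample was left out, and that of the first Ppard tile was kept in 1 of the 6 such fits.

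Conjugating enzymes had 2 calls in 41 tiles (4.88%), in Gstt1, a glutathione transferase (9.44% and 52.9%), and Sult2b1, a sterol sulfotransferase (54.0% and 90.8%), both higher in CAST/EiJ in every sample. Among Zfp genes, most of which encode DNA-binding zinc-finger proteins, 15 of 640 tiles were called (2.34%), 10 higher in CAST/EiJ. Zfp809, which silences retroviral sequences in embryonic cells, had 2 neighbouring tiles at 34.8% and 30.8% in C57BL/6J and 2.24% and 1.85% in CAST/EiJ. Zfp697 had a tile with 98 positions at 1.56%, 1.18% and 1.35% in C57BL/6J and 29.9%, 33.4% and 31.7% in CAST/EiJ. Zfp872 went from 98.3% ± 2.89 to 34.0% ± 19.4, and NOD/ShiLtJ was at 9.52% there while the other 6 strains had at least 88.2%.

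The remaining lists had 0 to 3 calls each, set beside the 2.07% called of all tested tiles. Serpins had 1 call in 23 tiles (4.35%), in Serpine3 (75.9% and 12.3%). Major histocompatibility genes had 1 in 24 (4.17%), in H2-DMa (15.2% and 72.6%), a chaperone of class II peptide loading. Insulin and IGF signalling had 2 in 144 (1.39%), with Sgk1 lower in CAST/EiJ (76.9% in C57BL/6J and 41.0% in CAST/EiJ) and Rictor higher (67.5% and 92.5%). Writers and erasers of DNA methylation had 1 in 62 (1.61%), beside Uhrf2 (44.8% and 73.1%), a call that was lost whichever sample was left out. The developmental Pax, Sox, Tbx and Gata factors had 3 in 312 (0.962%; Sox15 higher in CAST/EiJ, Sox5 and Pax7 lower). The ABC and Slco transporters had 3 in 186 (1.61%; Abcc3 and Abcb9 higher, Abcc4 lower). The calls at Serpine3, H2-DMa, Sgk1, Sox5 and Abcc4 stayed whichever sample was left out. Limma called 0 of 107 tiles of glucose and glycogen metabolism, 0 of 87 of the circadian clock, 0 of 28 of apolipoproteins, 0 of 151 of Hox genes and 0 of 65 of urinary protein, olfactory and vomeronasal genes. These lists had 20, 10, 8, 10 and 17 tiles at an unadjusted limma p under 0.05, in the same order and whatever the difference. Of all 66418 tested tiles 12442 had one. At a called share of 2.07%, lists of this size would hold few calls, and no difference from that share was tested.

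Imprinted genes had 2 calls in 131 tiles (1.53%), at Mest and Mcts2, both expressed from the paternal copy. The call at Mest stayed and that at Mcts2 (40.2% and 70.9%) was lost whichever sample was left out. Of 31 imprinted genes with 5 or more positions near a start or end, 12 had means between 35% and 65% in both strains. Snrpn was at 41.3% and 40.2%, Plagl1 at 41.0% and 42.0%, Igf2r at 36.4% and 36.5% and Meg3 at 53.5% and 57.1%, in C57BL/6J and CAST/EiJ. The level within 1 kb of the Mest start was 32.5%, 27.9% and 36.3% in C57BL/6J and 67.9%, 54.2% and 52.1% in CAST/EiJ. Peg13 was at 47.9% and 57.1%. Cdkn1c, a cell cycle inhibitor expressed from the maternal copy, was at 27.6% and 17.6%, and Ndn at 22.5% and 11.7%. The samples of the strains did not overlap for Mest, Peg13, Zrsr1, Commd1, Igf2 and Blcap, which were higher in CAST/EiJ, nor for Cdkn1c, Ndn, Magel2 and Peg12, which were lower. They overlapped for the other imprinted genes with 5 or more positions, Snrpn, Plagl1, Igf2r and Meg3 among them. Thus 10 of the 31 genes (32.3%) had samples that did not overlap, by as little as 0.718 points at Blcap and 1.28 points at Igf2, against 23.3% of 14306 protein-coding genes measured the same way. Some imprinted genes share positions, and the difference between these shares was not tested.

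Levels at cell type markers were read beside those of the promoter windows of protein-coding genes, 94.5% of which were below 20% in both strains, so a low level at a marker does not by itself identify a cell type. The 7 hepatocyte genes Apob, Hnf4a, Cebpa, Foxa2, Foxa3, F2 and Trf, each with 5 or more positions, had levels below 20% in both strains, from 0.222% to 10.4% in C57BL/6J and from 0.418% to 15.5% in CAST/EiJ. Alb, Apoa1, Ttr, Cps1, Tat and Serpina1a had too few positions. Of 6 macrophage genes 2 had enough positions, Csf1r (96.1% and 91.7%) and Spi1 (15.7% and 16.7%), and of 6 endothelial genes Kdr (2.67% and 4.39%) and Tek (75.3% and 59.3%). The 5 stellate cell genes ranged from 0.619% to 58.4% in C57BL/6J and from 0.817% to 54.0% in CAST/EiJ, and the 4 bile duct genes from 0.749% to 22.9% and from 1.21% to 36.1%. Krt7, a bile duct keratin, was at 14.8%, 18.98% and 23.7% in C57BL/6J and at 38.2%, 35.2% and 34.9% in CAST/EiJ. No lymphocyte marker had 5 positions. Several markers of other cell types were thus as low as those of hepatocytes, and the labelled cell type could not be checked from these values. Methylation at a start does not measure the number of cells of a type, and the part of other cell types in the differences was not tested.

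The 7 other strains were set beside the pair at the called tiles. PWK/PhJ, the wild-derived Mus musculus musculus strain, lay nearer to CAST/EiJ than to C57BL/6J at 53.6% of the called tiles in which it had a value. The share was 28.4% for WSB/EiJ, 27.6% for A/J, 20.3% for NOD/ShiLtJ, 20.1% for DBA/2J, 18.2% for 129S1/SvImJ and 17.6% for NZO/HlLtJ. The shares depended on direction: PWK/PhJ was nearer to CAST/EiJ at 61.3% of tiles higher in CAST/EiJ and at 38.7% of tiles higher in C57BL/6J, and A/J at 35.3% and 12.4%. Of 921 called tiles with a value in every strain, 267 (29.0%) had all 7 other strains nearer to C57BL/6J, 165 (17.9%) had PWK/PhJ alone nearer to CAST/EiJ, and 15 (1.63%) had all 7 nearer to CAST/EiJ. Since the pair was used to choose the tiles, these shares are descriptions without a test.

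**Figure D5:**
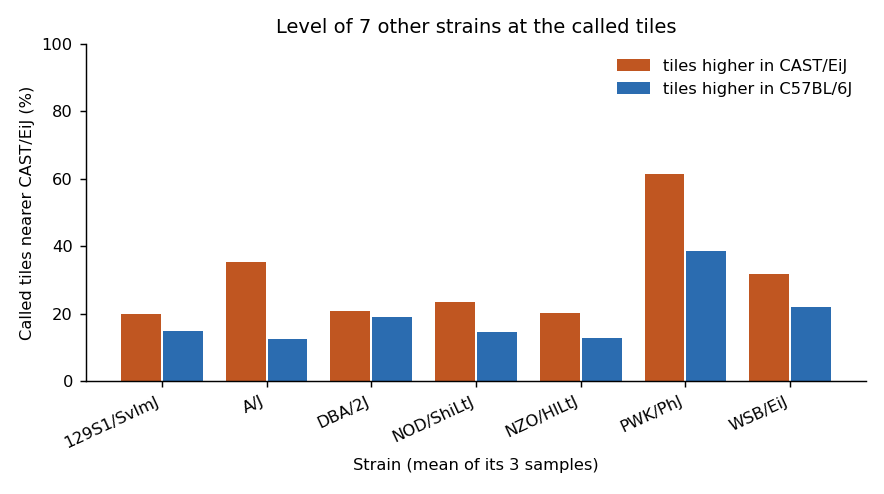
Share of called tiles (y axis, %) at which the mean of each other strain (x axis, 3 samples each) lies nearer to CAST/EiJ than to C57BL/6J, by direction of the tile. PWK/PhJ has the tallest bars, 61.3% and 38.7%.

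Single positions gave a different balance of directions from tiles. Of 927792 tested positions 4907 were called (0.529%), 2441 higher in CAST/EiJ and 2466 in C57BL/6J, so that 49.7% were higher in CAST/EiJ. This split changed sides with the processing. It was 26.0% of 639 calls with an offset of 1 point and 57.6% of 8945 calls with untransformed percentages. It was 62.2% of 3830 calls when the fit of the 6 samples was limited to positions listed in all 27 samples, and 67.4% of 13994 calls when, on those same positions, all 27 samples entered the fit. It also differed with how widely a position was listed. Of called positions listed in all 27 samples 1484 were higher in CAST/EiJ and 1010 in C57BL/6J, and of those not listed in all 27 samples 957 and 1456. That is 59.5% and 39.7% higher in CAST/EiJ, where over all tested positions of these classes the mean was higher in CAST/EiJ at 55.7% and 54.2%. In 891 called positions the rest of the tile differed by under 10 points, and 534 of these were higher in C57BL/6J. Of the 891, 372 were listed in all 27 samples and 209 of them were higher in CAST/EiJ. Of the 519 not listed in all 27 samples 148 were higher in CAST/EiJ. In 1639 called positions the rest of the tile differed by at least 25 points in the same direction, and 965 of these were higher in CAST/EiJ. Among the 1390 called positions under 5% in the lower strain and above 80% in the other, 904 were methylated in C57BL/6J and not in CAST/EiJ. Leaving out any 1 sample left 451 to 821 called positions, of which 28.9% to 35.4% were higher in CAST/EiJ. Neither the count nor the balance of directions of single positions was therefore stable.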

How the data were processed

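Per the labels, RRBS libraries were made from genomic DNA of hepatocytes cut with MspI. Per the submitters' processing notes, Trim Galore 0.6.3, Bowtie2 and Bismark 0.22 and the builds GRCm38 and mm10 were used; any coverage filter, and whether strain genomes served for alignment, were not given in the sources used here. Per the file headers, the authors deposited a percent methylation from 0 to 100 for each position, with no counts. The 6 lists held 2916034 to 3126017 positions. In promoter windows of RefSeq (GRCm38.p6), 99.98% of the listed positions fell on a CpG.

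Strain was taken from the labels. The comparison, the gene lists and the rules were chosen with earlier results of these data known. The planned test allowed for counts; because the lists hold percentages only, limma 3.58.1 (R 4.3.3) was fitted to log2((percent + 5)/(100 - percent + 5)) of each tile or position in the 6 samples, with Benjamini-Hochberg adjustment over all tested. The other values were computed in Python 3.11.15 (numpy 2.4.6, pandas 2.3.3). The code was tested on simulated data. Named tiles were the 10 called tiles with the greatest difference in each direction and 10 in each direction within 1 kb of a protein-coding start. Both sets came from called tiles in which the samples of the strains do not overlap. For each gene list the called tile with the greatest difference in each direction was also named. Other list genes with calls were named after their values were seen. The gene table gives spans without exons, so exonic and intronic positions were not separated, and 79.9% of its protein-coding genes had a start. None on chromosome 18 did, so that chromosome is absent from the tiles named near starts and from the promoter windows. A hepatocyte marker of the list is not reported here. Level classes were cut at 20% and 80%. Means of samples were compared with exact permutation tests.

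Alternatives were the offset, the scale, the filter on the mean, the minimum difference, limma's prior, the set of positions, the tile definition, averaging of strands, all 27 samples in the fit, a replicate block, and leaving out each sample.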

Additional observations from a re-analysis of the deposited data

How the results depend on the processing

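Of 814 values recomputed under the alternatives, 611 were neither counts nor named tiles under another offset, scale or prior. Of these 0 changed direction, but most could not have done so. In the named tiles the samples of the strains do not overlap, so leaving out a sample or blocking by replicate keeps the sign. The direction split of called positions is not among the 611, and it ranged from 26.0% to 67.4% higher in CAST/EiJ. The count of 1378 called tiles became 2762 with a minimum difference of 10 points, 223 with 50 points, 522 with tiles of 10 or more positions and 898 with the strands of a CpG averaged, and it ranged from 860 to 1180 with 1 sample left out. The interval of the share of called tiles higher in CAST/EiJ treats tiles as independent, although neighbouring called tiles mostly shared direction. The share moved beyond that interval with positions listed in all 27 samples (68.4%) and those positions with all 27 samples in the fit (69.1%). It also did so with tiles of 3 or more positions (59.8%) and of 10 or more (70.1%). With 1 sample left out the share ranged from 62.0% to 64.9%. The count of 4907 called positions became 639 with an offset of 1 point, 8945 with untransformed percentages, 7776 with a trended and robust prior and 13994 with all 27 samples on the positions they share, and ranged from 451 to 821 with 1 sample left out. With a minimum difference of 10 or 50 points only the cut on the difference changed. The same 66418 tiles were tested, and the same 2957 had an adjusted limma p under 0.05. Fewer tiles were tested with 10 or more positions or averaged strands. The cause of the other changes was not tested.

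The strains share the numbers 1 and 4 in the labels, but the mice are of different strains. The deviations of samples with the same number did not go together (r = 0.00878 and 0.0143 over tested tiles). These correlations cannot settle whether equal numbers mark a shared preparation, and the main fit did not pair samples. With a replicate block over these numbers limma called 0 tiles and 0 positions. At an unadjusted limma p under 0.05 there were 8681 tiles and 84901 positions. That fit compares the strains only within the pairs numbered 1 and 4, because the other samples have no partner with the same number. With so few pairs the absence of calls cannot decide whether tiles or positions differ between the strains. The difference in mean level over these pairs was 0.960 points and that of intermediate X positions -4.59 points.

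Of the 56 named tiles, 50 stayed called with an offset of 1 point, 50 with tile medians and 47 without CAST/EiJ sample 5, the fewest for any sample left out; all 36 that could be fitted stayed called with positions listed in all 27 samples. Tile medians ended the calls at Bag5, Sox5, Abcc3, Rictor, Nr1i2 and Uhrf2. The calls at Nr1i2 and Uhrf2 were lost without any 1 of the 6 samples. The exact test of 3 against 3 samples cannot go below p = 0.1. Because the depth of each position is not known, positions of low coverage could not be set apart.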

Other observations

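The 8 megabase windows with 7 or more called tiles were chosen after their values were seen. They held 61 called tiles, 47 of them higher in CAST/EiJ, a larger share than the 63.9% among all called tiles. The called share of tested tiles was 5.34% to 7.34% per window, against 2.07% over all tiles, and the choice by count favoured windows with many tested tiles. The window from 43000001 on chromosome 19 had a higher share, with 6 of 59 tested tiles called (10.2%, 4 higher in CAST/EiJ). In 7 of the 8 windows chosen more were higher in CAST/EiJ. The window from 114000001 to 115000000 on chromosome 5 had 9 (8 higher in CAST/EiJ), and those from 97000001 and 118000001 on chromosome 11 and from 78000001 on chromosome 15 had 8 each (6 higher in CAST/EiJ in each). The other windows had 7 calls each, with 6 higher in CAST/EiJ from 117000001 on chromosome 11, all 7 from 112000001 on chromosome 5, 5 from 29000001 on chromosome 17 and 3 from 28000001 on chromosome 17. No test was made of these windows.

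At the Lasp1 gene, which encodes an actin-binding protein, 2 neighbouring called tiles differed in opposite directions, the single pair of neighbours that did so. The Gm10557 tile, a pseudogene, was at 95.05% in C57BL/6J (mean of 3) and at 41.7%, 0% and 0% in CAST/EiJ, so that 1 CAST/EiJ sample stood apart from the others, and the call was lost when C57BL/6J sample 1, 2 or 4 or CAST/EiJ sample 4 or 5 was left out. At LOC115488029, 2 neighbouring tiles were at 92.1%, 88.3% and 96.7% in C57BL/6J and at 15.3%, 12.7% and 12.4% in CAST/EiJ, and in the tile 612 bases from the start the 4 other strains with a value stood at 88.9% (DBA/2J), 81.2% (NZO/HlLtJ), 51.97% (129S1/SvImJ) and 49.1% (NOD/ShiLtJ).

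Across tested tiles, Pearson's r was 0.975 to 0.980 between CAST/EiJ samples, 0.964 to 0.970 between C57BL/6J samples and 0.939 to 0.95 between strains. Across single positions it was 0.955 to 0.963, 0.934 to 0.945 and 0.930 to 0.948, so that there the values within C57BL/6J and between strains overlapped. The share of listed positions at exactly 0 or 100% was 76.3%, 70.6% and 75.1% in C57BL/6J and 72.4%, 70.1% and 65.9% in CAST/EiJ, which overlapped. These correlations run across tiles or positions, which are not independent replicates.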
